A study of Mus musculus with 6 samples.

Results

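The clustered protocadherin genes of the mouse lie side by side on chromosome 18 in an alpha, a beta and a gamma cluster. They were chosen by symbol: every protein-coding gene of the RefSeq table for GRCm38.p6 (the assembly of mm10) named Pcdha, Pcdhb or Pcdhg followed by a digit, a or c. That gave 51 of 21883 protein-coding genes, 14 in the alpha, 22 in the beta and 15 in the gamma cluster. The symbol rule leaves out the Pcdhgb genes, which stand between the Pcdhga genes, and these are given beside the members. Open chromatin was mapped by ATAC-seq, which reads where the transposase Tn5 can cut, in primary mouse vascular smooth muscle cells. There were 3 libraries from cells given siRNA against Arid3a (labelled si-Arid3a#1, #2 and #3, called knockdown 1 to 3). Another 3 came from cells given a negative control (control 1 to 3). The siRNA numbers equal the replicate numbers, so they may mark different siRNAs or only replicates. Cells were kept for 24 h after transfection. The growth protocol in the labels also describes angiotensin II treatment without saying which libraries received it, so it was not used as a factor.

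Clustered protocadherins are cell adhesion proteins known mainly from neurons, where each cell switches on its own combination of them. In the alpha and gamma clusters every gene has its own first exon, the variable exon with its own promoter, which is spliced to constant exons shared by the whole cluster, while each beta gene is a single exon. CTCF and cohesin bring a chosen promoter to distant enhancers, and DNA methylation keeps the other promoters silent. The variable exons resemble one another in sequence, and the sources used here do not say how reads matching several places were treated, so the part of read placement in the calls below was not tested.

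The lists held 50543, 51279 and 41629 peaks in knockdown 1 to 3 and 51330, 33248 and 52091 in control 1 to 3. Knockdown 3 and control 2 had the fewest tags, at an estimated 1.19 and 0.953 megatags against 1.89 to 2.01 megatags in the other 4 libraries. Of the 8 smooth muscle markers, 3 (Acta2, Tagln and Smtn) were open in 6 of 6 libraries at the start of the gene (at either end where no strand was at hand). Mylk was open in 5 of 6, Cnn1 and Lmod1 in 4 of 6, and Myh11 and Des in none. No marker of neurons was open in 6 of 6 libraries and 6 of 10, among them Rbfox3 and Snap25, were open in none, but Map2 and Syt1 were open in 5 of 6 and Tubb3 in 4 of 6. Of the 6 fibroblast markers 2 (Col1a1 and Col1a2) were open in 6 of 6, Thy1 in 5 of 6, Dcn in 1 of 6 and 2 in none. Of the 6 endothelial, 6 leukocyte and 6 epithelial markers 0 were open in 6 of 6. Among leukocyte markers Cd68 was open in 5 of 6 and Lyz2 in 3 of 6, and among endothelial markers Kdr in 2 of 6 and Tek in 1 of 6. The other 4 leukocyte and 4 endothelial markers and all 6 epithelial markers were open in none. Open in 6 of 6 were 37.5% of the smooth muscle and 33.3% of the fibroblast markers. Both shares were near the 35.4% of protein-coding genes outside the protocadherin clusters, and neither was tested. Open chromatin at a gene does not measure its RNA, and peaks at Arid3a cannot show whether the knockdown worked.

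The alpha and beta clusters held few called peaks in any library, and the gamma cluster held them mainly at its far end, from Pcdhgc3 onward. Each cluster was read over its genes plus 20 kb on both sides, which on mm10 gave 298.6 kb for alpha (chromosome 18, 36910285 to 37208897), 296.4 kb for beta (37244998 to 37541419) and 220.1 kb for gamma (37641775 to 37861873). The alpha window held 0, 0 and 0 peaks in knockdown 1 to 3 and 0, 1 and 0 in control 1 to 3. The beta window held 1, 0 and 0 peaks in the knockdown libraries and 1, 3 and 1 in the control libraries. The gamma window held 11, 9 and 6 peaks in the knockdown libraries and 10, 8 and 11 in the control libraries. Control 2, the library with the shortest list, thus held more beta peaks than any other, and knockdown 3 held the fewest gamma peaks.

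**Figure D1:**
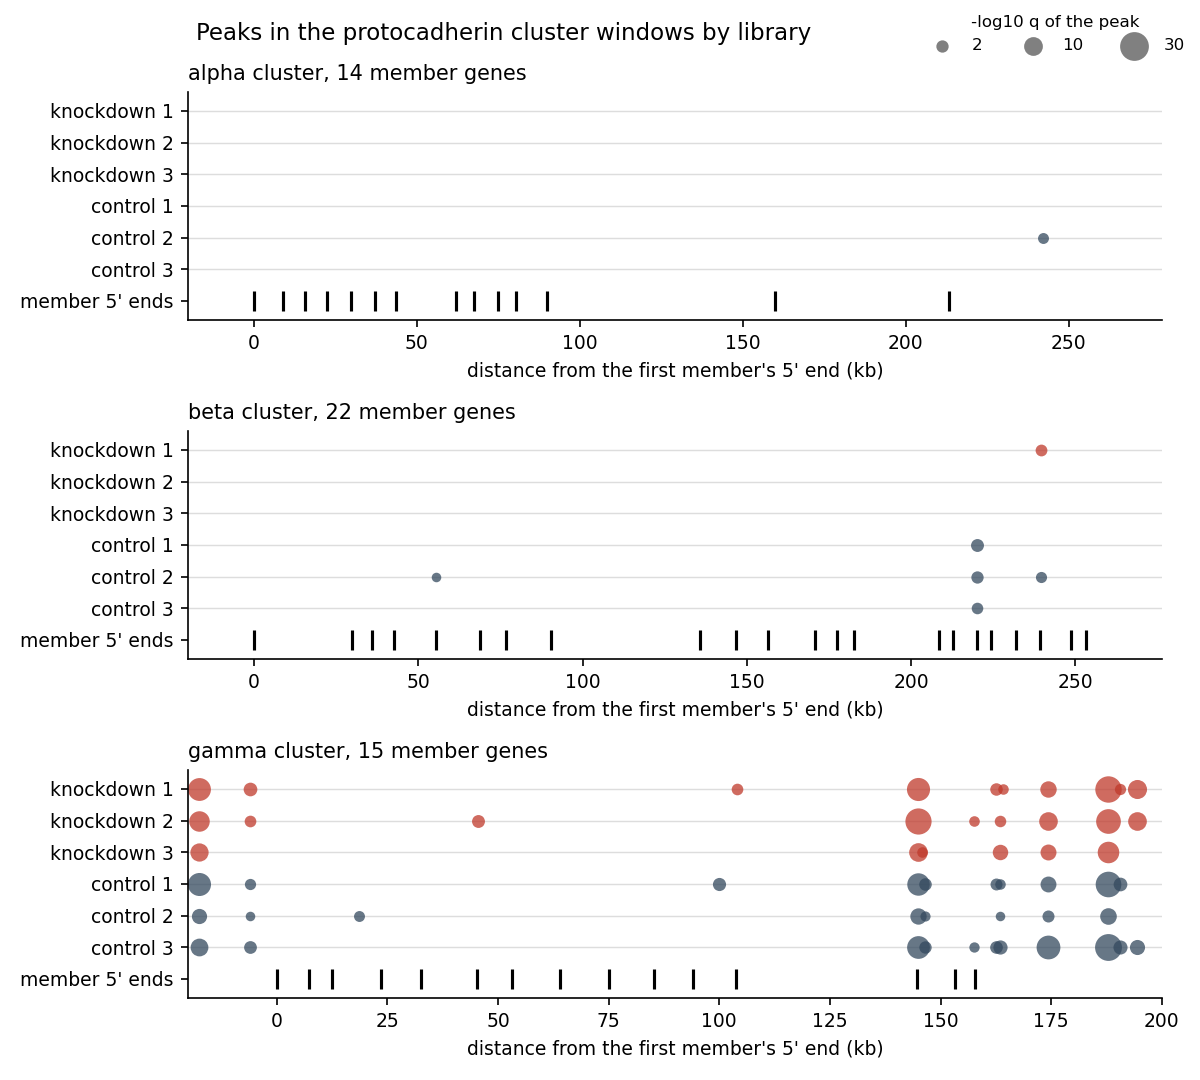
Peaks in the 3 cluster windows, by library (rows) and distance in kb from the 5′ end of the first gene of the cluster. Each circle is a merged region with a peak in that library, drawn at the middle of the region. It is larger for a larger −log10 q of the strongest peak there. Black ticks are the 5′ ends of the 14, 22 and 15 genes. The alpha row holds 1 circle, the beta rows a few small ones, and the gamma rows a dense group from 145 kb onward.

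Measured per 100 kb, the gamma window was denser in peaks than the genome and the alpha and beta windows were sparser. Part of the gamma peaks lay in the flanks, outside the gamma genes. Without flanks, over a shorter stretch, gamma averaged 5 peaks in the knockdown and 5.67 in the control libraries. With flanks of 20 kb it averaged 8.67 and 9.67. The gamma window had 2.73 to 5.00 peaks per 100 kb in the knockdown libraries and 3.63 to 5.00 in the control libraries, while the same lists held 1.63 to 1.98 and 1.30 to 2.04 per 100 kb over all chromosomes. The beta window had 0 to 0.337 in the knockdown and 0.337 to 1.01 in the control libraries, and the alpha window 0 in all but control 2, with 0.335. No region of any library lay within a stretch of 370.2 kb that held all 14 alpha 5′ ends, from 36802106 to 37172262. Only 761 of 85153 gaps between neighbouring regions in the genome were longer, and the median gap was 10.3 kb. Such sparse stretches are common at the scale of a window, however: of 8721 consecutive stretches as long as the alpha window, 31.1% held at most 1 region, as the alpha window did, and on chromosome 18 25% of 292 did.

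**Figure D2:**
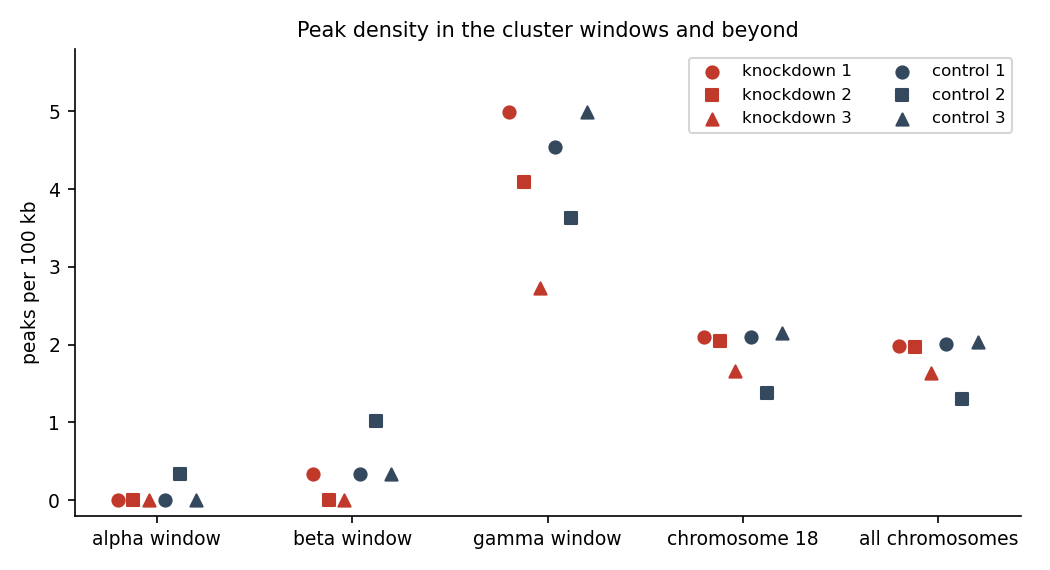
Peaks per 100 kb (vertical axis) in the 3 cluster windows, on chromosome 18 and on all chromosomes, 1 symbol per library, knockdown in red left of control in dark blue. Gamma lies at 2.73 to 5.00, above the chromosome in every library, and alpha and beta lie at 0 to 1.01, below it in every library.

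Between the groups, no window passed the test for a different number of peaks. In the beta window the knockdown libraries averaged 0.333 ± 0.577 peaks and the control libraries 1.67 ± 1.15 (SD, n = 3 each), a difference of −1.33 that exceeded both SDs (exact two-sided permutation p = 0.3, adjusted p = 0.6). Without control 2 this difference was −0.667. In the gamma window they averaged 8.67 ± 2.52 and 9.67 ± 1.53 (SD, n = 3 each), a difference of −1 below either SD (exact two-sided permutation p = 0.7, adjusted p = 1). Without knockdown 3 it was 0.333, with the opposite sign. As a share of the list, gamma took 1.79 ± 0.369 of every 10000 peaks in the knockdown libraries and 2.16 ± 0.232 in the control libraries (SD, n = 3 each; exact two-sided permutation p = 0.3, adjusted p = 0.6). That difference, −0.364, was below the knockdown SD and above the control SD. It was −0.190 without knockdown 3, −0.239 without control 2 and −0.557 without knockdown 1, and −0.0620 when peaks needed a −log10 q of 2. The share for beta was 0.0660 ± 0.114 in the knockdown and 0.430 ± 0.409 in the control libraries (SD, n = 3 each; exact two-sided permutation p = 0.3, adjusted p = 0.6), a difference of −0.364 that was −0.127 without control 2. For alpha, number and share both had an exact two-sided permutation p of 1. Adjustment covered these 6 values, and 3 libraries against 3 cannot give an exact p below 0.1. Whether the control libraries are separate cultures is not stated in the labels, so the control spread behind these p-values may be technical. If the numbers in the knockdown labels mark different siRNAs, the knockdown spread also holds any difference between those siRNAs. Whether the cells of the knockdown libraries came from separate preparations is not stated either.

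At the level of single genes, 1 of the 51 clustered protocadherins, Pcdhgc3, had an open 5′ window in 6 of 6 libraries, and 44 had none in any library. The 5′ window is 1000 bases on each side of the annotated start of the gene, where the variable exon begins, and it counts as open where a peak shares a base with it. Thus 1.96% of the members were open in 6 of 6 libraries and 86.3% in 0 of 6, against 35.4% and 44.6% of 17491 other protein-coding genes with a known strand. The open members were Pcdhb20, Pcdhga12 and Pcdhgc3 in knockdown 1, Pcdhga6, Pcdhgc3 and Pcdhgc5 in knockdown 2, and Pcdhgc3 alone in knockdown 3. In the controls they were Pcdhb17 and Pcdhgc3 in control 1, Pcdhb5, Pcdhb17, Pcdhb20 and Pcdhgc3 in control 2, and Pcdhb17, Pcdhgc3 and Pcdhgc5 in control 3. Widening it to 2500 bases into the gene, or to the gene end for shorter beta genes, added no member. This variable exon window need not hold the whole exon, since exon ends were not at hand and most beta genes are longer.

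Pcdhgc3 (chromosome 18, 37806410 to 37841873) encodes a C-type gamma protocadherin, a class of isoforms that neurons express without the random choice made among the others. Fold enrichment, as the authors' caller gave it, is the number of tags at the summit plus 1, divided by the tags expected locally in that library plus 1. It was 10.4, 11.7 and 8.58 in knockdown 1 to 3 and 9.60, 7.04 and 9.65 in control 1 to 3. These are the authors' values, scaled within a library, and the ranges of the groups overlap. The −log10 q was 21.8, 28.8 and 13.3 in the knockdown libraries and 20.4, 9.48 and 21.0 in the control libraries, lowest in the shallow libraries of each group. Within its own list the peak stood above 89.7%, 94.7% and 85.9% of all peaks by −log10 q in knockdown 1 to 3 and above 88.2%, 78.4% and 89.2% in control 1 to 3. The deposited fold and −log10 p also fix the whole number of tags at a summit, which was 30, 38 and 20 in the knockdown and 30, 17 and 31 in the control libraries. All 6 summits lay 15 to 139 bases before the annotated start.

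The other 6 open members had weak peaks in 1 to 3 libraries each. Their 10 peaks rested on 2 to 7 tags, against 17 to 38 at Pcdhgc3, and their fold enrichment ran from 2.71 to 5.10. In no library did one of them reach a −log10 q of 5. Bulk libraries cannot tell few open cells from a low level in many, and whether such weak peaks are background calls was not tested. The summits lay from 404 bases before to 294 bases after the annotated start.

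Pcdhb17 (37485021 to 37488290), a beta protocadherin, was the member that differed most between the groups, with a peak in 0 of 3 knockdown and 3 of 3 control libraries. In control 1 to 3 its fold enrichment was 5.10, 4.52 and 4.20, its −log10 q 4.89, 4.16 and 3.37, and its tag number 5, 4 and 4. The 3 summits lay 30 to 39 bases before the gene start, within 10 bases of each other. In each of these libraries the local background was the most frequent value of that list, 0.176, 0.107 and 0.191 tags in control 1 to 3. The smallest tag number of any deposited peak was 3, 3 and 2 in knockdown 1 to 3 and 3, 2 and 3 in control 1 to 3, so the Pcdhb17 peaks stood 1 or 2 tags above the least that gave a peak. Of the 51 members 0 had a knockdown-only and 1 a control-only 5′ window, against 0.12% and 0.0858% of other protein-coding genes. Pcdhb17 was also the 1 member open in at least 2 more libraries of a group than of the other. Of other protein-coding genes, 1.22% were open in at least 2 more knockdown than control libraries and 1.09% in at least 2 more control than knockdown libraries. Pcdhb17 was no longer control-only when each list was cut to the length of the shortest, and no member was when peaks needed a −log10 q of 5.

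The remaining beta and gamma calls were seen in single libraries or in 1 of each group. Pcdhb20 had a peak in knockdown 1 (fold 4.29, 4 tags) and control 2 (fold 4.13, 4 tags). The Pcdhb5 peak was found in control 2 alone, with a fold of 2.71 and 2 tags, and its summit lay 1 base after the gene start. The gamma gene Pcdhga6 had a peak in knockdown 2 alone (fold 5.09, 5 tags) and Pcdhga12 in knockdown 1 alone (fold 4.23, 4 tags). Pcdhgc5, a C-type gene, had peaks in knockdown 2 (fold 3.78, 7 tags) and control 3 (fold 3.65, 6 tags), with summits 251 and 404 bases before the start. These values do not separate the groups.

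**Figure D3:**
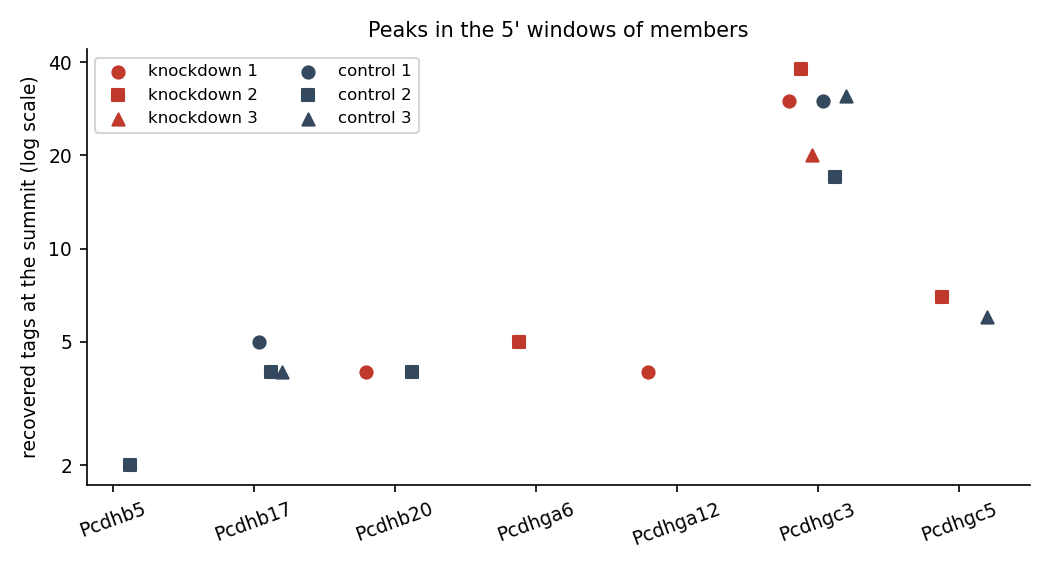
Tags recovered at the summit (vertical axis, log scale) of peaks in the 5′ windows of the 7 members open in any library, 1 symbol per library, knockdown in red left of control in dark blue. Pcdhgc3 has all 6 symbols, at 17 to 38 tags, and the others have 1 to 3 symbols at 2 to 7 tags.

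No library had an open 5′ window at any of the 14 alpha genes, Pcdha1 to Pcdha12, Pcdhac1 and Pcdhac2, although Pcdhac1 and Pcdhac2 are the C-type genes of that cluster. The single alpha peak, in control 2 (37172262 to 37172504; fold 3.61, 3 tags), lay 28.7 kb after the Pcdhac2 start. In the beta cluster 19 of 22 genes had no open 5′ window in any library, in the gamma cluster 11 of 15. The gamma genes without a call were Pcdhga1 to Pcdhga5, Pcdhga7 to Pcdhga11 and Pcdhgc4, which in mouse is needed for the survival of some neurons. Pcdhgc4 starts 8.67 kb after Pcdhgc3 and 4.47 kb before Pcdhgc5, and no peak was called in its variable exon window. Of the Pcdhgb genes, Pcdhgb1 had a peak at its 5′ end in control 2 alone (fold 3.61) and the pseudogene Pcdhgb8 in control 1 alone (fold 5.50), and Pcdhgb2, Pcdhgb4, Pcdhgb5, Pcdhgb6 and Pcdhgb7 had none.

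Peaks of all libraries were merged into regions where they shared a base, which gave 1 region in the alpha, 3 in the beta and 17 in the gamma window. All 3 beta regions overlapped the start of a gene (Pcdhb5, Pcdhb17 and Pcdhb20). Of the 21 regions 4 were present in 6 of 6 libraries (19.0%), against 24.4% of all 85174 regions, and 8 in 1 library (38.1%), against 33.5%. The 4 constant regions were all in the gamma window: at the upper end of Taf7, at Pcdhgc3, in the stretch shared by all gamma genes, and inside Diaph1.

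The gamma window split at Pcdhgc3 into a dense and a sparse part, a division made after the values were seen. The 56.5 kb from 1 kb before Pcdhgc3 to the end of the window held 8, 6 and 5 peaks in knockdown 1 to 3 and 7, 5 and 9 in control 1 to 3, in 11 of the 17 regions. These counts include the regions inside Diaph1, which lie beyond the shared end of the gamma genes. The 163.6 kb before the dense part, with 12 of the 15 gamma starts, held 3, 3 and 1 peaks in the knockdown libraries. In the control libraries it held 3, 3 and 2. Local background was also higher in the dense part, at 0.801 to 3.10 tags per region and library, than in the sparse part, at 0.107 to 0.766 tags, so a peak there needed more tags to be called.

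After the Pcdhgc5 start, regions lay inside the stretch that all 15 gamma genes span, which includes the constant exons. Exons and introns could not be told apart, since the gene table gives only the ends of genes. The constant region at 37835353 to 37836892 lay 16.6 kb after the Pcdhgc5 start and 4.98 kb before the shared end of the cluster, with fold enrichments of 6.80, 8.51 and 7.49 in knockdown 1 to 3 and 6.77, 4.94 and 12.0 in control 1 to 3. Nearer to Pcdhgc5, a region at 37824978 to 37825605 was present in knockdown 2 and 3 and in control 1 to 3, with folds of 4.34 and 7.22 in the knockdown and 3.72, 3.26 and 5.86 in the control libraries. A neighbour at 37824012 to 37824459 was present in knockdown 1 (fold 4.82), control 1 (fold 4.53) and control 3 (fold 4.92). Another region beside them, at 37825850 to 37826043, was present in knockdown 1 alone, with a fold of 3.75 and 7 tags. The other 3 were each present in libraries of both groups.

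A second region at Pcdhgc3, at 37807936 to 37808493 and 1.80 kb after the start, was present in 0 of 3 knockdown and 3 of 3 control libraries. Its fold enrichment in control 1 to 3 was 4.33, 3.49 and 4.20, its −log10 q 4.45, 1.96 and 4.26, and its tag number 13, 8 and 13. Knockdown 3 had a peak of 8 tags (fold 3.74) at 37807424 to 37807624, closer to the start, that did not overlap it. This region and that of Pcdhb17 were the 2 control-only regions among the 21, and 0 were knockdown-only. Over the genome 0.277% of regions were control-only and 0.432% knockdown-only. Among the 5 cluster regions present in 3 of 6 libraries, 2 were control-only, where 2.94% of 8040 such regions in the genome were, and 0 were knockdown-only, against 4.58%. Counts this small rest on single calls, and neither region was control-only with lists of equal length or where peaks had to cover 50% of the region.

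Both flanks of the gamma window were open in every library. The region at 37643807 to 37644562 covered the upper end of Taf7, which encodes a subunit of the general transcription factor TFIID, with folds of 13.5, 11.2 and 9.62 in knockdown 1 to 3 and 13.0, 7.36 and 8.90 in control 1 to 3. About 6 kb before Pcdhga1, a weaker region at 37655569 to 37655936 was present in all libraries but knockdown 3, at folds of 5.77 and 4.24 in the knockdown and 4.07, 2.71 and 5.04 in the control libraries. On the far side, inside Diaph1, the gene of an actin-nucleating formin, the region at 37849360 to 37850006 had folds of 13.1, 11.1 and 10.8 in knockdown 1 to 3 and 11.6, 7.34 and 11.6 in control 1 to 3. Its fold was higher than that of the Pcdhgc3 peak in every library but knockdown 2. Also inside Diaph1, a region at 37852153 to 37852444 was present in knockdown 1, control 1 and control 3, and one at 37856060 to 37856345 in knockdown 1, knockdown 2 and control 3. An enhancer region of the beta genes is known downstream of the gamma cluster in mouse, but no table used here places it, so these regions were not matched to it.

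**Figure D4:**
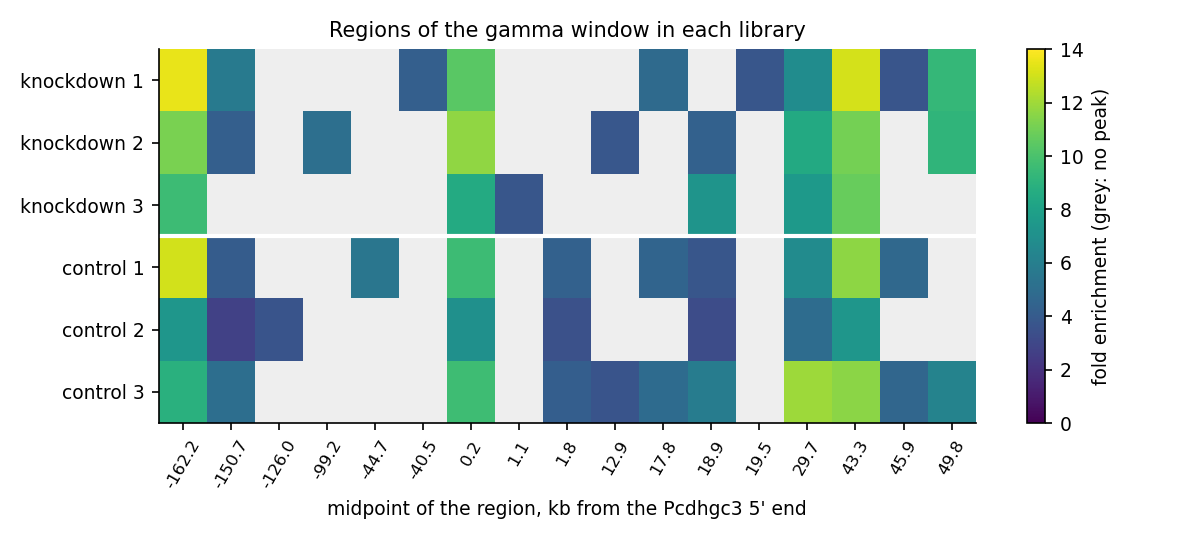
Fold enrichment (colour) of the 17 regions of the gamma window in each library, knockdown above control, ordered by position and labelled with the distance of their midpoint from the Pcdhgc3 5′ end in kb. Grey means no peak. The columns at −162.2 (Taf7), 0.2 (Pcdhgc3), 29.7 and 43.3 kb (Diaph1) are filled in all 6 libraries.

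Related genes outside the clusters differed among themselves. Of 11 non-clustered protocadherins, which are separate genes with their own promoters, 2 (Pcdh1 and Pcdh18) were open in 6 of 6 libraries and 5 (Pcdh8, Pcdh9, Pcdh10 and Pcdh11x among them) in 0 of 6. Among 14 cadherins, classical and type II ones and the atypical Cdh13, 0 were open in 6 of 6 libraries. Open in 0 of 6 were 11, including Cdh1, Cdh4, Cdh5 and Cdh6. The remaining cadherins were Cdh2 and Cdh11, open in 5 of 6, and Cdh3, open in 2 of 6. Of 20 factors linked to the folding, silencing or DNA methylation of the clusters, 7 were open in 6 of 6 libraries. The 20 include Tet1, Tet2 and Tet3, whose enzymes act against DNA methylation and are not silencers. Among these 7 were the cohesin subunit genes Smc1a and Smc3 and the silencers Smchd1 and Trim28. Another 40% of the 20, with Ctcf (4 of 6) among them, were open in 1 to 5 libraries. Rad21, Stag1, Nipbl and Dnmt1 were open in 0 of 6, where a missing call is not a measured level of 0. Of 17 binding and signalling partners, 10 were open in 6 of 6, such as the kinase genes Ptk2 and Fyn and the actin regulators Wasf1 and Nckap1, and 6, including Ptk2b and Cyfip2, in 0 of 6. The share open in 6 of 6 was 18.2% of the non-clustered protocadherins and 0% of the cadherins. It was 35% of the folding, silencing and methylation factors and 58.8% of the partners. Among other protein-coding genes it was 35.4%, and these shares were not tested. Of the 62 genes in these 4 lists 0 were knockdown-only and 0 control-only, where the shares of 0.12% and 0.0858% among other protein-coding genes would give less than 1 gene, so the counts say nothing particular about the lists. For 24 of the 62 genes no strand was at hand and both gene ends were read, which can only raise the number called open.

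**Figure D5:**
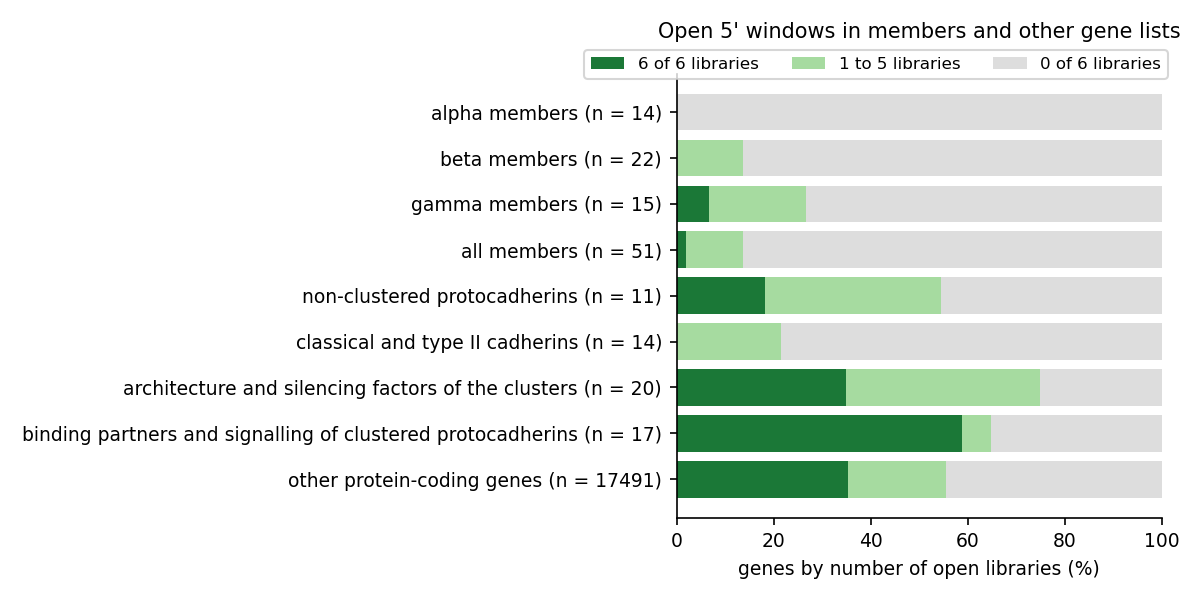
Share of genes (horizontal axis, percent) with an open 5′ window in 6 of 6, 1 to 5, or 0 of 6 libraries, for the members by cluster, the 4 related lists and the other protein-coding genes. Open in 0 of 6 were 100% of alpha, 86.4% of beta and 73.3% of gamma members, against 44.6% of other protein-coding genes.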

How the data were processed

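Each of the 6 libraries came as 1 deposited list of peaks on mm10. Bowtie2, Picard and MACS2 are named in the submitters' processing notes, and the sources used here give no versions or parameters, nor how duplicate reads were treated or whether reads were shifted to the Tn5 cut site. Kept duplicates would raise tag numbers in libraries of low complexity, and a missing shift moves a summit by a few bases. Per the labels' protocols, 50000 cells and a Tn5 reaction of 30 min were used. Fold enrichment (a ratio), −log10 p and −log10 q are the authors' values per peak, and the deposited score was not used. The members, lists and tests were chosen with earlier results of these data known.

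Tags at a summit (1 to 600 tried) were recovered from fold and −log10 p under the Poisson model of MACS2, with 1 tag added above and below in the fold, within 0.001 for at least 99.996% of peaks per library. Depth was estimated from the most frequent background of a list with an assumed genome size of 1870000000 bases, and ranks libraries only. Gene ends came from RefSeq (GRCm38.p6) and strands from its promoter table. The 5′ end of a member was taken as its lower end, the one that alpha and gamma genes do not share, since the clusters are known to run in 1 direction. Peaks were merged where they shared 1 base. Where a library had several peaks in a region, the values given are those of the peak with the largest −log10 q. Group-specific means 3 of 3 libraries of a group and 0 of 3 of the other. Window values were compared by exact two-sided permutation over 20 relabellings, with Benjamini-Hochberg adjustment over 6 values. Named were members open in at least 5 of 6 libraries, members differing by 2 or more libraries between the groups, and members of group-specific regions. The remaining open members, each a small set, were named after their values were seen. From each list, up to 4 genes open in 6 of 6 and up to 4 open in 0 of 6 were named in list order. Markers and list genes open in only some libraries were named after their values were seen. Python 3.11.15, pandas 2.3.3 and scipy 1.17.1 were used, and overlap, merging and tag recovery were tested on simulated data. Cell type markers were read in the same windows, and 1 of those marker lists is not reported here.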

Additional observations from a re-analysis of the deposited data

How the results depend on the processing

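Pcdhgc3 was the 1 member open in 6 of 6 libraries under every setting tried, and the number of members open in 0 of 6 stayed between 44 and 50. Of the 2 control-only regions, 1 was left at a minimum −log10 q of 2, and 0 at a minimum of 5, with lists of equal length, or where peaks had to cover 50% of a region. The number of members with a group-specific 5′ window, 1, was 0 at a −log10 q of 5, with lists of equal length, and at the upper end of the beta genes (a setting added after seeing the data). The 4 regions present in 6 of 6 libraries were 2 with no flank, by construction, and 1 where peaks had to cover 50% of a region. Leaving out 1 library at a time, the difference in gamma peaks, knockdown minus control, ran from −2.17 to 0.333, positive without knockdown 3. No window value passed 0.05 under any setting, and such small designs could not have done so. In the 4 deepest libraries, also chosen after seeing the data, 2 regions were control-only and 0 knockdown-only, though fewer libraries then had to agree.

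Replicate numbers are shared by the groups. Over all regions, libraries of the same number did not deviate together (correlations of 0.0240, −0.0521 and −0.0479). The shallow libraries of the groups carry different numbers, so depth may affect these correlations. Whether libraries of the same number shared a batch was not tested. With the replicate block, an exact sign-flip test, p was 1 for the −1 difference in gamma peaks, 0.5 for the −1.33 in beta and 1 for the −0.333 in alpha, and the smallest p it allows is 0.25. Peaks of 2 to 5 tags are near the least that the lists hold. Knockdown 1 and 2 listed peaks of 4 and 5 tags at other members. The absence of a listed peak is not a measured level of 0, and whether weak peaks were missed was not tested.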

Other observations

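Between the alpha and beta windows 1 further region was called, in control 3 alone (37218223 to 37218408, fold 5.04, 5 tags), 46.7 kb before the Pcdhb1 start. The annotated genes Gm37013, Gm38666 and Gm38667 run from inside the alpha cluster to the shared end of the gamma cluster, and none of the 3 had a peak within 1000 bases of either end. Among the non-clustered protocadherins, Pcdh7 was open in 3 of 3 knockdown libraries (folds 4.24, 5.65 and 3.96) and 1 of 3 control libraries (fold 6.53, control 3), and was picked out after its values were seen.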
